A study of Homo sapiens with 12 samples.

Results

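Axon guidance ligands and receptors are the secreted or surface proteins that attract or repel growing nerve fibres and migrating cells. Their mRNAs were followed here in 2 human melanoma cell lines and in derivatives that had become resistant to palbociclib, an inhibitor of the cell cycle kinases CDK4 and CDK6. The genes were chosen by name and level. All protein-coding semaphorins of classes 3 to 7, plexins, neuropilins, ephrins, Eph receptors, Slits, Robos, netrins, UNC5 receptors, DCC and NEO1 were taken if their mean was at least 1 CPM (counts scaled per library size) in any of the 4 groups. Of 70 such symbols 63 qualified, among 36675 genes listed in either line and 13505 protein-coding genes that met the same level. They comprise 18 semaphorins, 9 plexins, 2 neuropilins, 8 ephrins, 12 Eph receptors, 2 Slits, 4 Robos, 3 netrins and 5 netrin receptors, that is 31 ligands and 32 receptors. The level chose them, so a level of 1 CPM is no finding. The lowest of the 63 by their highest group mean, before scaling, were EPHA6 at 1.31 CPM, PLXNA4 at 1.37 CPM and NTN3 at 1.43 CPM, and the highest of the 7 left out were SEMA4A at 0.885 CPM and EPHA1 at 0.510 CPM. SEMA5B, EPHA8, SLIT1, NTN5 and UNC5A were also left out. DCC and EPHA6 reached the level in a single group, so the rule itself favoured a difference between their groups.

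A375 and CHL1 are established melanoma lines, and the parental cells of each were grown without drug. The resistant A375 cells came from 7 months, and the resistant CHL1 cells from 3 months, in rising palbociclib concentrations. Both derivatives were then kept in 4 µM palbociclib and spent 72 h in medium without it before RNA was extracted, so the comparison is between resistant cells off the drug and cells never exposed. The labels do not say whether a derivative is 1 clone or a mixed population. Each group had 3 libraries, and nothing says that these came from separate cultures, so p-values reflect only variation among these libraries, which may be technical.

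Most of these proteins work as ligand and receptor on neighbouring cells or at short range. Semaphorins bind plexins, and secreted class 3 semaphorins usually need a neuropilin as co-receptor. Ephrins and Eph receptors both sit in membranes and signal in both directions at cell contacts, with A-type ephrins anchored by lipid and B-type ephrins spanning the membrane. Slits repel through Robo receptors. Netrins attract through DCC and neogenin and repel through UNC5 receptors. Melanocytes descend from the neural crest, a migrating embryonic population that is steered by ephrins, semaphorins and Slits.

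The libraries held 25398920 to 29812686 counts, and 3 counts in a library stood for 0.101 to 0.118 CPM. The pigment lineage factor SOX10 was at 295 to 400.1 CPM in the A375 groups and 1031 to 1051 CPM in the CHL1 groups as means, whereas the pigment enzyme TYR was under 0.1 CPM in both A375 groups. PMEL and MLANA had means of at most 1.07 and 0.731 CPM. Melanocytic markers, SOX10 among them, summed to 429.5 to 580.5 CPM in parental and 267.2 to 407.7 CPM in resistant A375 libraries. Of 7 tested there 1 rose and 1 fell. In CHL1 this sum was 1169 to 1411 and 1199 to 1403 CPM, and of 9 tested 1 rose and 2 fell. Neuronal markers were low, with a summed level of 16.6 to 21.0 CPM in parental and 25.4 to 30.1 CPM in resistant A375 libraries, and 2 of 7 tested (SYT1 and GAP43) rose. In CHL1 the same sum was 8.16 to 8.86 and 8.97 to 9.97 CPM. Fibroblast markers summed to 21.5 to 25.6 CPM in parental and 48.6 to 57.5 CPM in resistant A375, where 5 of 8 tested rose and 1 fell, and to 17.0 to 23.1 and 11.5 to 14.1 CPM in CHL1. Endothelial markers summed to at most 22.6 CPM, and CDH5, which marks endothelium, was under 0.1 CPM in resistant A375 and in both CHL1 groups. Leukocyte markers summed to 55.4 to 79.8 CPM in parental and 55.1 to 72.7 CPM in resistant A375, mostly CD68 at 58.9 and 61.8 CPM as means, and 1 of 2 tested, LYZ, fell from 6.24 to 2.50 CPM. In CHL1 they summed to 11.05 to 11.98 and 10.8 to 11.7 CPM, mostly PTPRC at 9.54 and 9.23 CPM, and 0 of 3 tested were called. CD3E and MS4A1 were under 0.1 CPM in every group. Markers of neural crest-like or undifferentiated melanoma summed to 611 to 762 CPM in parental and 507 to 582 CPM in resistant A375. Of 5 tested there 0 rose and 1 fell. In CHL1 they summed to 77.45 to 89.2 and 100.1 to 117.5 CPM, where 1 of 4 tested rose and 2 fell. Keratinocyte and epithelial markers summed to 399 to 491 and 479 to 538 CPM in A375. Their CHL1 sums were 33.4 to 34.7 and 31.7 to 35.35 CPM. In each line 1 of 5 tested rose and 2 fell. The part of such cells or programmes in the changes below was not tested. In bulk RNA, fewer cells with a transcript and less of it per cell cannot be told apart.

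Levels are normalised CPM, counts scaled by library size and by a factor that corrects for composition. Changes are log2 fold changes of resistant over parental cells ± SE, so that a value of 1 is a 2-fold change. Calls required an adjusted p below 0.05 in edgeR's quasi-likelihood test, with Benjamini-Hochberg adjustment over all genes tested in that comparison. Values of several libraries are given in the order of their replicate numbers.

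The first comparison asked which guidance genes differed between resistant and parental A375. The Slit ligand SLIT2, the semaphorins SEMA3A, SEMA3C, SEMA5A, SEMA6A and SEMA6D, the ephrins EFNA5 and EFNB3 and the Eph receptor EPHA4 rose. The receptors ROBO4, PLXNB3, PLXNA3 and UNC5D and the ligand SEMA7A fell by more than 1 on the log2 scale. Of 59 guidance genes tested 16 rose, 15 fell and 28 were not called. Without resistant replicate 1 the number that rose was 10, and without resistant replicate 3 it was 9. The called share was 52.5%, beside 28.3% of all 18086 genes tested and 33.1% of the protein-coding genes of at least 1 CPM. By direction, 13.4% of all genes were higher and 14.8% lower. At least 2-fold changes were called for 11 of the 59, beside 7.35% of all genes tested and 7.25% of the protein-coding genes of at least 1 CPM. These counts include EPHA6 among the higher and DCC among the lower genes, both at least 2-fold, whose differences the choice by level favoured. The median change was -0.02, against -0.001 over all genes, and the median absolute change was 0.43 against 0.20. Among ligands 11 of 28 rose and 6 fell, and among receptors 5 of 31 rose and 9 fell. EFNA2, EPHA5, SLIT3 and NTN3 were too low in A375 to be tested.

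**Figure D1:**
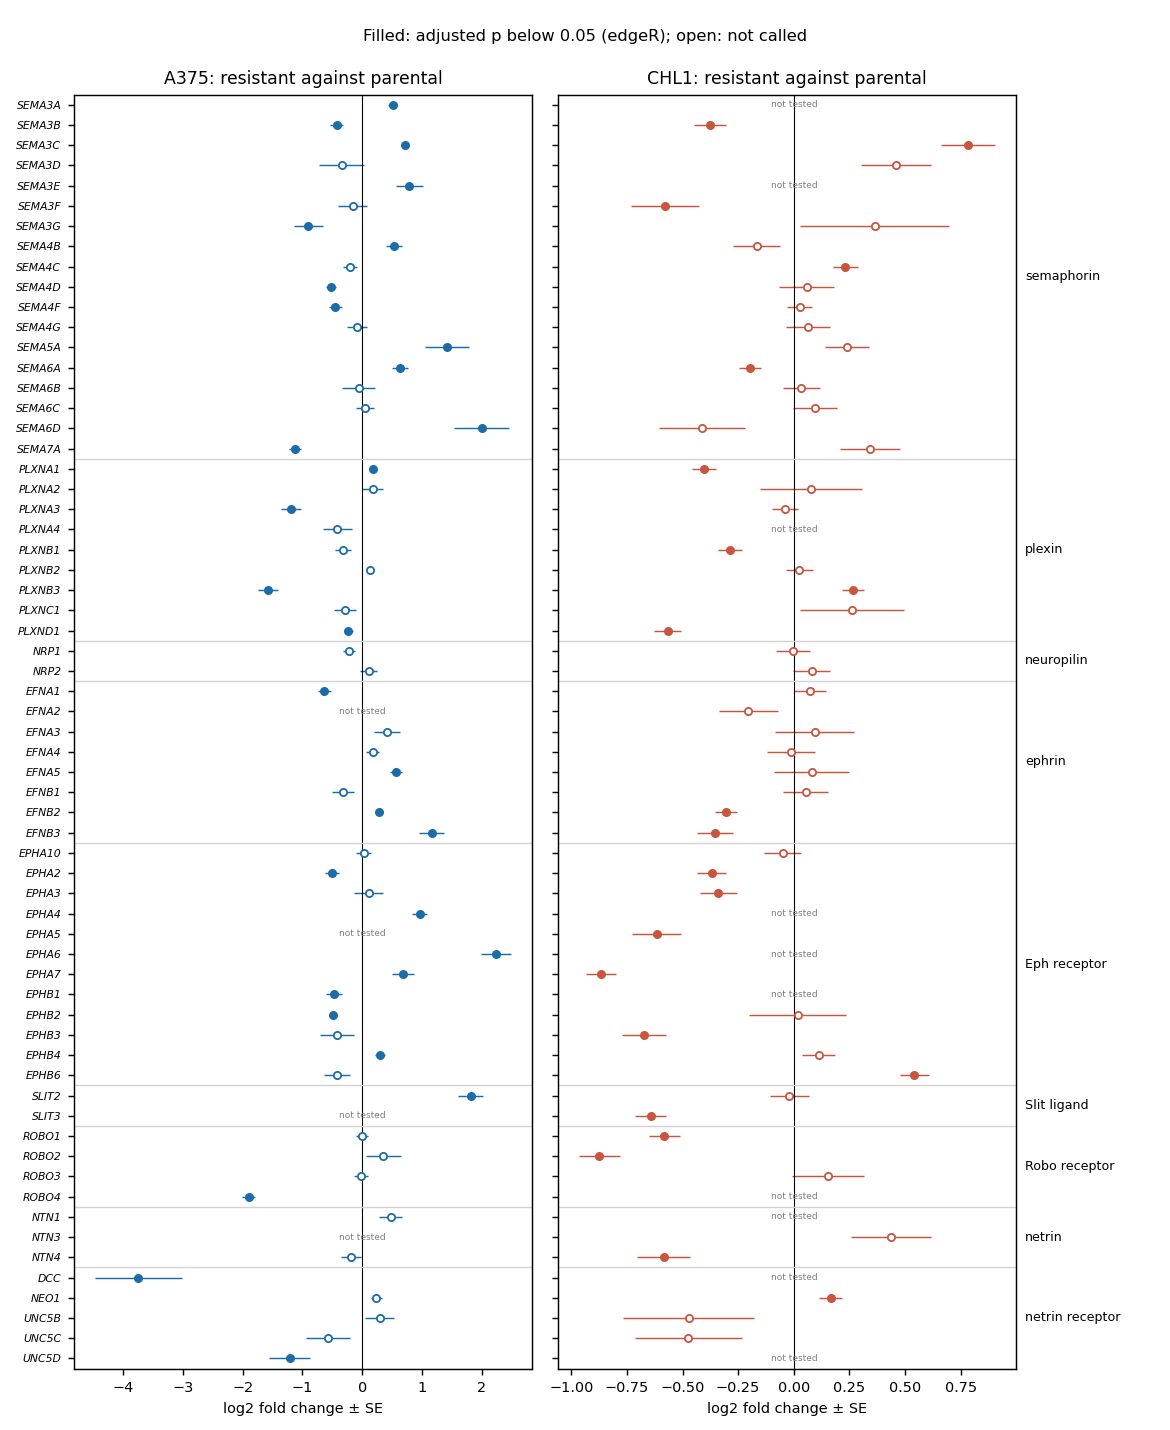
Log2 fold change ± SE of resistant over parental cells for each of the 63 guidance genes, grouped by family, in A375 (left) and CHL1 (right), with filled points for an adjusted p below 0.05 in edgeR. The panels have different horizontal scales: called changes ran from -3.75 to 2.24 in A375 and from -0.87 to 0.78 in CHL1.

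SLIT2, a secreted repellent read by Robo receptors, showed the largest rise of a ligand present above 10 CPM in both A375 groups. Its level (ENSG00000145147) was 11.4, 14.2 and 7.72 CPM in the parental libraries and 46.7, 38.7 and 32 CPM in the resistant ones. Every resistant library lay above every parental one, and the change was 1.82 ± 0.21 (SE, adjusted p = 0.000315). In CHL1 it was 17.9, 17.6 and 17.7 CPM in the parental libraries and 16.7, 16 and 19.9 CPM in the resistant ones, the groups overlapped, and the change was -0.02 ± 0.09 (SE, adjusted p = 0.911). SLIT3 stayed at 0.173 ± 0.0749 CPM and 0.19 ± 0.0607 CPM (SD, n = 3) in A375, close to the level of 3 counts.

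Class 3 semaphorins are secreted. SEMA3C (ENSG00000075223), which acts through neuropilins and PLXND1, was at 107, 98.6 and 101 CPM in the parental libraries and 174, 158 and 171 CPM in the resistant ones. All 3 resistant libraries were above the parental ones, a change of 0.71 ± 0.06 (SE, adjusted p = 5.2e-05). SEMA3A, a growth cone collapsing factor that binds NRP1, was at 83.6, 91.5 and 101 CPM in the parental libraries and 132, 135 and 125 CPM in the resistant ones. It too rose without overlap, by 0.51 ± 0.07 (SE, adjusted p = 0.00103). SEMA3E, which binds PLXND1 directly, was at 1.52, 1.48 and 1.02 CPM in the parental libraries and 2.8, 1.88 and 2.29 CPM in the resistant ones. These groups did not overlap, and the change of 0.79 ± 0.22 (SE, adjusted p = 0.0262) was lost without parental replicate 3 or resistant replicates 1 or 3. SEMA3B, described as a growth suppressor in other tumours, was at 182, 152 and 146 CPM in the parental libraries and 128, 99.9 and 128 CPM in the resistant ones, and fell by 0.43 ± 0.11 on the log2 scale (SE, adjusted p = 0.0197), a call lost without parental replicate 1 (-0.33, adjusted p = 0.0557). SEMA3G changed by -0.90, a call missing from 4 of 6 leave-one-out fits, while SEMA3D and SEMA3F were not called. SEMA3A, SEMA3C, SEMA3D and SEMA3E lie on chromosome 7, and the medians of the 20 nearest expressed genes around them were 0.08, 0.08, 0.19 and 0.08. Over only the 10 nearest, the medians were higher, at 0.11, 0.52, 0.31 and 0.31 in the same order. Here and below, other guidance genes were kept among the neighbours, so genes that lie close together can enter each other's medians.

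Semaphorins of classes 4 to 7 are held at the membrane. SEMA7A (ENSG00000138623), which is lipid-anchored and binds integrins and PLXNC1, was at 63.2, 69.1 and 82.9 CPM in the parental libraries and 33.4, 31.2 and 33.8 CPM in the resistant ones. The resistant libraries were all below the parental ones, and SEMA7A fell by 1.13 ± 0.10 on the log2 scale (SE, adjusted p = 8.54e-05). SEMA5A, a ligand of PLXNB3, was at 0.607, 1.7 and 2.05 CPM in the parental libraries and 2.73, 3.98 and 5.05 CPM in the resistant ones. It was higher in each resistant library, by 1.42 ± 0.37 (SE, adjusted p = 0.0199), a call lost without resistant replicate 3 (1.21, adjusted p = 0.0753). SEMA6A, a transmembrane ligand of A-type plexins, was at 7.02, 6.3 and 5.75 CPM in the parental libraries and 10.9, 8.32 and 10.4 CPM in the resistant ones, a rise of 0.63 ± 0.14 (SE, adjusted p = 0.00804) without overlap. SEMA6D, a ligand of PLXNA1, stayed under or near 1 CPM, with 0.379, 0.037 and 0.22 CPM in the parental libraries and 0.842, 0.733 and 1.0 CPM in the resistant ones. Its rise of 2.00 ± 0.46 (SE, adjusted p = 0.0113) rests on 17 counts over the parental and 76 over the resistant libraries, and ranged from 1.51 without parental replicate 2 to 2.69 without parental replicate 1. SEMA4B rose by 0.54 (lost without resistant replicate 1 or 3), and SEMA4D and SEMA4F changed by -0.53 and -0.45. SEMA4C, SEMA4G, SEMA6B and SEMA6C were not called, though SEMA4C passed without parental replicate 3 (-0.33, adjusted p = 0.028).

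The promoter stretches of SLIT2, SEMA3C and SEMA7A are shown because SLIT2 had the largest rise and SEMA7A the largest fall of a ligand above 10 CPM in A375, and SEMA3C rose in both lines. Each is the 250 bases before a transcription start in RefSeq (GRCh38.p14), 5′ to 3′ on the gene's strand, with GC boxes (GGGCGG on either strand) in capitals. SEMA3C has a pair of starts and SEMA7A is shown for the upstream of its starts. Coordinates are chr4:20251655-20251904, plus strand for SLIT2, chr7:80922390-80922639, minus strand for the upstream and chr7:80919052-80919301, minus strand for the downstream SEMA3C start, and chr15:74433959-74434208, minus strand for SEMA7A.
SLIT2: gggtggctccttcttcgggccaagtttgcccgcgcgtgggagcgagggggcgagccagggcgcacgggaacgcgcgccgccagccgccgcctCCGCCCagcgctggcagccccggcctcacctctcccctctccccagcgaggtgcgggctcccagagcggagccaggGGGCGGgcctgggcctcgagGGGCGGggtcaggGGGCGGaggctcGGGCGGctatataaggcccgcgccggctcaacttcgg
SEMA3C upstream: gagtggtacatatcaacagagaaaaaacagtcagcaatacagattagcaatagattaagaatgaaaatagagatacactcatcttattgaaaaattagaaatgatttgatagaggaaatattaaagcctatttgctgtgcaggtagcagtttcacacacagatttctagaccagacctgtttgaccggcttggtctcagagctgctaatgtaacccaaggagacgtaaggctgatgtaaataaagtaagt
SEMA3C downstream: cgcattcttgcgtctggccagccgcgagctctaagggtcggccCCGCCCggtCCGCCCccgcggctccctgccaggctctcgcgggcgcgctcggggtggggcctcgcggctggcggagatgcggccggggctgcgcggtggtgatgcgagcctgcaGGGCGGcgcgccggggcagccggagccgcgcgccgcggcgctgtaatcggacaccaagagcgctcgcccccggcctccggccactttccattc
SEMA7A upstream: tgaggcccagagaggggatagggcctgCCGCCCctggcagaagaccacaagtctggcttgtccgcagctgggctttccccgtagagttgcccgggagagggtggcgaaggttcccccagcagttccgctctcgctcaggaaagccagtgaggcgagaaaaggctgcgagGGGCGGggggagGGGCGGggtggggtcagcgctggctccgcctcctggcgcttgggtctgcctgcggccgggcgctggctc
GC content was 77.2% in the SLIT2 stretch, 36.4% and 77.6% in the upstream and downstream SEMA3C stretches, and 70.0% in that of SEMA7A. SLIT2 held 5 GC boxes, the downstream SEMA3C start 3, SEMA7A 3, and the upstream SEMA3C start 0. Some GC boxes lie within a few bases of each other but none overlap. An AP-1 site (TGANTCA), an E-box (CACGTG) and a TATA box (TATAAA), searched on both strands, had no match in these 4 stretches. The search was for these exact letters, so near forms, such as tatataag close to the end of the SLIT2 stretch, were not counted. Over all 35114 RefSeq starts, 42.6% held a GC box, 6.57% the AP-1 letters, 6.35% the E-box and 10.7% the TATA box. Of the 63 guidance genes 53 matched an entry, with 80 starts between them. At one or more of their starts 45 of these genes (84.9%) held a GC box, 1 held the AP-1 letters, 3 the E-box and 3 the TATA box. These shares count genes with any of their starts and so are not on the same footing as the shares of starts. Median GC content was 66.0% over the 80 starts and 58.0% over all starts. A match is a description of the letters and not of binding.

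Ephrins moved in both directions in A375. EFNB3, a transmembrane ephrin, was at 5.35, 3.04 and 3.48 CPM in the parental libraries and 10.6, 7.93 and 8.06 CPM in the resistant ones, with every resistant library above the parental ones and a change of 1.17 ± 0.21 (SE, adjusted p = 0.00375). EFNA5, a lipid-anchored ligand of EPHA4 and EPHA7, was at 12.1, 14 and 13.3 CPM in the parental libraries and 19.6, 20.8 and 17.8 CPM in the resistant ones, a rise of 0.57 ± 0.10 (SE, adjusted p = 0.00235) without overlap. EFNB2, the ligand of EPHB4 in vessels, was at 48.3, 56.6 and 48.3 CPM in the parental libraries and 63.6, 61 and 61.9 CPM in the resistant ones. These 3 ephrins were higher in each resistant library, but the change of EFNB2, 0.29 ± 0.07 (SE, adjusted p = 0.0175), was called in only 2 of 6 leave-one-out fits. EFNB2 lies on chromosome 13, where the 20 nearest expressed genes had a median of -0.44 and 67.8% of 227 expressed genes were lower. EFNA1, the main ligand of EPHA2, was at 14.4, 11.9 and 13.6 CPM in the parental libraries and 9.1, 8.25 and 8.39 CPM in the resistant ones, and it fell by 0.63 ± 0.10 on the log2 scale (SE, adjusted p = 0.00221). EFNA3, EFNA4 and EFNB1 were not called, with changes of 0.42, 0.18 and -0.32.

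Eph receptors are receptor tyrosine kinases. EPHA2, the most abundant guidance transcript per kilobase of exon in both lines, was at 418, 531 and 497 CPM in the parental libraries and 315, 398 and 306 CPM in the resistant ones. No resistant library reached the lowest parental one, and EPHA2 fell by 0.50 ± 0.12 on the log2 scale (SE, adjusted p = 0.0115). EPHA4, which binds both A- and B-type ephrins, was at 17.1, 17.7 and 12.4 CPM in the parental libraries and 30.1, 29 and 33 CPM in the resistant ones. It was higher in each resistant library, by 0.97 ± 0.13 (SE, adjusted p = 0.000707). EPHA7 (ENSG00000135333) was at 19.5, 22.3 and 12.9 CPM in the parental libraries and 29.2, 25.1 and 33.9 CPM in the resistant ones, a rise of 0.69 ± 0.19 (SE, adjusted p = 0.0228). The groups did not overlap, yet the EPHA7 call was lost without resistant replicate 1 or 3 (adjusted p = 0.064 and 0.0893). EPHA6 was low, at 0.341, 0.222 and 0.22 CPM in the parental libraries and 1.31, 1.15 and 1.29 CPM in the resistant ones, from 21 counts in all to 111. Its log2 fold change was 2.24 ± 0.25 (SE), a description rather than a finding, since only resistant A375 brought it past the 1 CPM that chose it. EPHB4, the receptor of EFNB2, was at 68.5, 57.2 and 62.4 CPM in the parental libraries and 86.4, 71.3 and 73.6 CPM in the resistant ones, and its change of 0.30 ± 0.09 (SE, adjusted p = 0.0353) did not pass in 4 of 6 leave-one-out fits. EPHB2 changed by -0.48 and EPHB1 by -0.47, the latter also failing in 4 of these 6, while EPHA3, EPHA10, EPHB3 and EPHB6 were not called. EPHB6 passed without resistant replicate 3 (-0.68, adjusted p = 0.0475).

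Plexins, the semaphorin receptors, mostly fell or were not called in A375. PLXNB3 was at 51, 35.5 and 35.7 CPM in the parental libraries and 13.2, 11.7 and 16.1 CPM in the resistant ones, without overlap, and fell by 1.58 ± 0.17 on the log2 scale (SE, adjusted p = 0.000203). PLXNA3 was at 23.5, 17.3 and 15 CPM in the parental libraries and 7.65, 7.74 and 9.0 CPM in the resistant ones, also without overlap, and fell by 1.19 ± 0.16 on the log2 scale (SE, adjusted p = 0.000831). Both are on chromosome X, where the 20 nearest expressed genes had medians of -1.05 and -0.98, and 35.3% of 479 expressed genes of the chromosome were lower. PLXNB3 shares 20.4% of its exon bases with SRPK3 on the same strand, so reads there cannot be told apart. PLXND1 was at 61.2, 61.4 and 52.2 CPM in the parental libraries and 49.9, 49.2 and 49.9 CPM in the resistant ones. PLXNA1, a receptor of class 3 and class 6 semaphorins, was at 134, 123 and 123 CPM in the parental libraries and 144, 140.3 and 144 CPM in the resistant ones. Neither gene had overlapping groups. Their changes were small, -0.23 ± 0.07 and 0.17 ± 0.05 (SE), and each call failed in 5 of 6 leave-one-out fits. PLXNA1 was also not called without a low-count filter (adjusted p = 0.0803). PLXNA2, PLXNA4, PLXNB1, PLXNB2 and PLXNC1 and the neuropilins NRP1 (-0.22) and NRP2 (0.11) were not called. PLXNB1 passed without parental replicate 2 (-0.42, adjusted p = 0.0425), PLXNB2 without parental replicate 1 (adjusted p = 0.0462), PLXNA2 without parental replicate 3 (0.0405) and NRP1 without resistant replicate 3 (0.0378), all in edgeR.

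ROBO4 (ENSG00000154133), a Robo receptor best known from endothelium, had the smallest adjusted p of the guidance genes in A375. Its level was 27.8, 31.5 and 32.9 CPM in the parental libraries and 7.62, 7.77 and 9.35 CPM in the resistant ones. All resistant libraries lay far below the parental ones, and ROBO4 fell by 1.90 ± 0.11 on the log2 scale (SE, adjusted p = 1.08e-05). Of the endothelial markers, KDR was at 8.22 and 10.2 CPM and TIE1 at 8.02 and 8.54 CPM as parental and resistant means, and neither was called. The others were under 1 CPM. CDH5 was at 0.335 and 0.0338 CPM, CLDN5 at 0.334 and 0.167 CPM, VWF at 0.348 and 0.270 CPM, and TEK at 0.58 and 0.68 CPM. The other Robo receptors were not called, at -0.01 ± 0.10 for ROBO1, 0.35 ± 0.29 for ROBO2 and -0.02 ± 0.11 (SE) for ROBO3.

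Of the netrin receptors, NEO1 was at 36.7 ± 4.53 CPM in parental and 43.3 ± 1.62 CPM in resistant A375 (SD, n = 3). DCC, the attractive netrin receptor and a gene long studied in colon cancer, was at 1.29, 1.3 and 5.27 CPM in the parental libraries and 0.135, 0.223 and 0.215 CPM in the resistant ones. The counts over a group went from 213 to 17, and parental replicate 3 held 144 of the former. The log2 fold change of DCC was -3.75 ± 0.73 (SE) with all libraries and -2.73 without parental replicate 3. It too is a description, since DCC reached 1 CPM only in parental A375. UNC5D, a repulsive netrin receptor, was at 3.11, 2.07 and 5.31 CPM in the parental libraries and 1.62, 1.82 and 1.08 CPM in the resistant ones, without overlap. It fell by 1.21 ± 0.34 on the log2 scale (SE, adjusted p = 0.0286), and the call was lost without parental replicate 3 or resistant replicates 1 or 3. UNC5B, UNC5C and NEO1 and the ligands NTN1 and NTN4 were not called, with changes between -0.57 for UNC5C and 0.48 for NTN1. NEO1 did pass without parental replicate 3 (0.32, adjusted p = 0.0309).

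**Figure D2:**
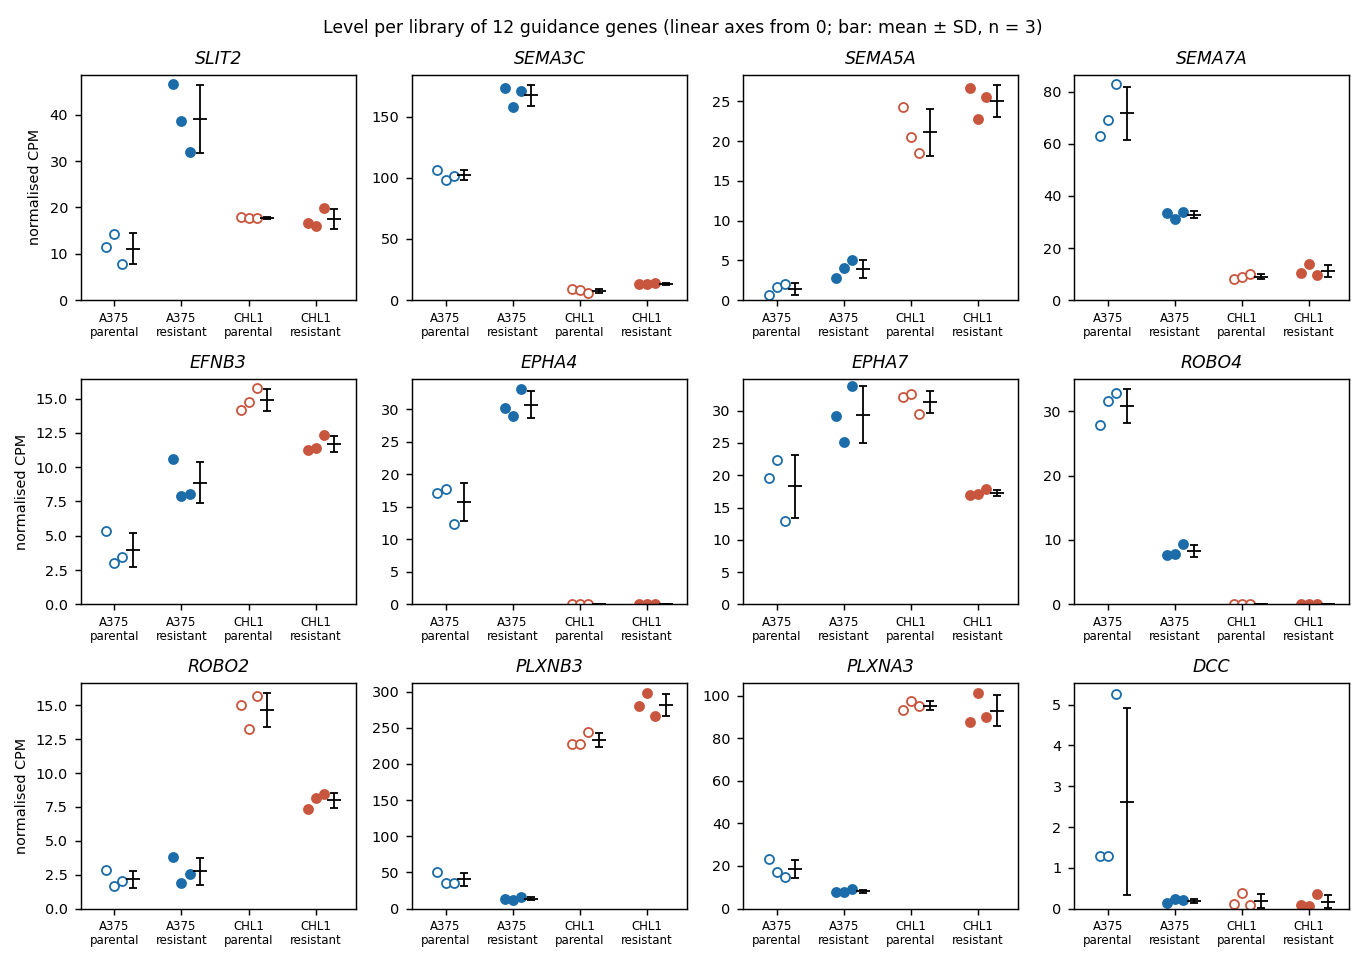
Normalised CPM in each of the 12 libraries (open circles parental, filled circles resistant, blue A375, red CHL1) for 12 guidance genes, with the mean ± SD of 3 libraries beside the points and each vertical axis starting at 0. SLIT2 is higher in the resistant libraries of A375, SEMA3C is higher in the resistant libraries of both lines, EPHA7 moves up in A375 and down in CHL1, and 1 parental A375 library stands above the rest for DCC.

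In CHL1 the called changes were smaller than in A375 and mostly downward. The receptors ROBO1, ROBO2, EPHA7, EPHB3, EPHA5 and PLXND1 and the ligands SLIT3, NTN4 and SEMA3F fell by more than 0.5 on the log2 scale. SEMA3C and EPHB6 rose by more than 0.5. Of 53 guidance genes tested 5 rose, 17 fell and 31 were not called. Without parental replicate 2 the number that rose was 3. The called share was 41.5%, beside 21.2% of all 17219 genes tested and 25.9% of the protein-coding genes of at least 1 CPM. It includes 9 falls on chromosome 3, where 68.5% of expressed genes were lower. Over all genes 9.11% were higher and 12.1% lower. No guidance gene changed 2-fold (0 of 53), beside 1.72% of all genes tested. The median change was -0.003 against 0.0001 over all genes, and the median absolute change 0.26 against 0.14. Among ligands 2 of 28 rose and 7 fell, and among receptors 3 of 25 rose and 10 fell. The 10 genes not tested in CHL1 were SEMA3A, SEMA3E, PLXNA4, EPHA4, EPHA6, EPHB1, ROBO4, NTN1, DCC and UNC5D.

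SEMA3C was at 8.83, 8.42 and 6.02 CPM in the parental libraries and 12.8, 13.3 and 14.1 CPM in the resistant ones of CHL1. The groups did not overlap, and the change of 0.78 ± 0.12 (SE, adjusted p = 0.00079) was close to that in A375 on the log2 scale, from a far lower level. SEMA4C, a ligand of PLXNB2, rose by 0.23 (adjusted p = 0.0125), which failed without parental replicate 2 (0.18, adjusted p = 0.0647). SEMA3B was at 190.2, 206 and 192 CPM in the parental libraries and 138, 173 and 143 CPM in the resistant ones, and fell by 0.38 ± 0.07 on the log2 scale (SE, adjusted p = 0.00312). SEMA6A was at 248, 220.5 and 223 CPM in the parental libraries and 199.5, 197 and 208 CPM in the resistant ones. It fell by 0.20 ± 0.05 on the log2 scale (SE, adjusted p = 0.0144), and the call was lost without parental replicate 1 or resistant replicate 2. SEMA3F changed by -0.58, a call lost in 5 of 11 other settings. The semaphorins that moved most in A375 were not called here and had log2 fold changes of 0.24 ± 0.10 for SEMA5A, -0.41 ± 0.19 for SEMA6D and 0.34 ± 0.14 for SEMA7A (SE). All 3 passed with no low-count filter, at adjusted p = 0.028, 0.000367 and 0.0101 in that order in edgeR. SEMA5A also passed without parental replicate 1, SEMA6D without parental replicate 3 or resistant replicate 1, and SEMA7A without resistant replicate 3. SEMA3B and SEMA6A had no overlapping libraries between the groups.

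Both Robo receptors tested at more than 5 CPM fell in CHL1. ROBO2 was at 15, 13.2 and 15.7 CPM in the parental libraries and 7.38, 8.18 and 8.45 CPM in the resistant ones. Without overlap, it fell by 0.87 ± 0.09 on the log2 scale (SE, adjusted p = 5.08e-05). ROBO1 went from 41.9 ± 3.34 to 28.1 ± 0.669 CPM (SD, n = 3), a change of -0.58 ± 0.07 (SE, adjusted p = 0.000111), and the Slit ligand SLIT3 from 41.1 ± 3.25 to 26.4 ± 1.55 CPM (SD, n = 3), a change of -0.64 ± 0.07 (SE, adjusted p = 6.92e-05). The A375 and CHL1 differences of ROBO2 are shown in the plot of levels per library, where the resistant CHL1 values are the lower ones and the A375 values overlap. SLIT3 shares 3.86% of its exon bases with antisense transcripts, which a kit that does not mark strand cannot separate. The same limit holds for EPHA5 (5.44%), SEMA6A (2.98%) and SEMA3F (2.28%), which also fell in CHL1.

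Among ephrins and Eph receptors of CHL1, EPHA7 had the smallest adjusted p. Its level was 32.1, 32.7 and 29.4 CPM in the parental libraries and 16.9, 17 and 17.8 CPM in the resistant ones. Each resistant library was below each parental one, and EPHA7 fell by 0.87 ± 0.07 on the log2 scale (SE, adjusted p = 6.02e-06). The 20 expressed genes nearest to it had a median of 0.10. EPHA2 was at 219.9, 205 and 238 CPM in the parental libraries and 155, 183 and 176 CPM in the resistant ones, and fell by 0.37 ± 0.06 on the log2 scale (SE, adjusted p = 0.00157). EFNB2 was at 95, 93.7 and 96 CPM in the parental libraries and 73.3, 76.2 and 81.6 CPM in the resistant ones, and fell by 0.30 ± 0.05 on the log2 scale (SE, adjusted p = 0.00116). Both genes were lower in each resistant library. EFNB3 was at 14.2, 14.7 and 15.8 CPM in the parental libraries and 11.3, 11.4 and 12.3 CPM in the resistant ones, and fell by 0.35 ± 0.08 on the log2 scale (SE, adjusted p = 0.00788). EPHB3, a receptor of B-type ephrins, was at 17.5, 19 and 20.8 CPM in the parental libraries and 11.5, 13.6 and 10.9 CPM in the resistant ones, and fell by 0.67 ± 0.10 on the log2 scale (SE, adjusted p = 0.000466). Neither of these had overlapping groups. EPHA5 changed by -0.62 and EPHA3 by -0.34, the latter lost without parental replicate 1 or resistant replicate 3. EPHB6, an Eph receptor without kinase activity, went the other way, from 75 ± 1.75 to 109.5 ± 10.8 CPM (SD, n = 3), a rise of 0.54 ± 0.06 (SE, adjusted p = 0.000102).

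PLXND1, the receptor of SEMA3E, was at 79.8, 81.9 and 82.1 CPM in the parental libraries and 50.2, 59.8 and 54.9 CPM in the resistant ones, and fell by 0.57 ± 0.06 on the log2 scale (SE, adjusted p = 5.81e-05). PLXNA1 was at 130.3, 127 and 139 CPM in the parental libraries and 93.8, 107 and 100.4 CPM in the resistant ones, and fell by 0.40 ± 0.05 on the log2 scale (SE, adjusted p = 0.000273). PLXNB3 was at 228, 228 and 244 CPM in the parental libraries and 279, 298 and 267 CPM in the resistant ones, and its rise was 0.27 ± 0.05 (SE, adjusted p = 0.00234). The resistant and parental libraries did not overlap for any of these 3 plexins. PLXNB1 changed by -0.29, and PLXNA2, PLXNA3, PLXNB2 and PLXNC1 were not called. NTN4, a netrin of basement membranes, went from 18.9 ± 1.41 to 12.6 ± 2.52 CPM (SD, n = 3), a change of -0.58 ± 0.12 (SE, adjusted p = 0.00428). NEO1, its candidate receptor, changed by 0.16 (adjusted p = 0.0389), which failed in 8 of 11 other settings, DESeq2 among them.

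Chromosome 3 carried 9 of the 17 falls in CHL1. Of the 10 guidance genes tested there 9 fell and 0 rose, and SEMA3G (0.36 ± 0.34, SE) was not called. The fallen ones were ROBO1, ROBO2, EPHA3, EPHB3, PLXNA1, PLXNB1, PLXND1, SEMA3B and SEMA3F. Of all 714 expressed protein-coding genes on chromosome 3, 489 (68.5%) were lower, 18 were higher and the median change was -0.34, beside -0.48 for the 10 guidance genes. The 20 nearest expressed genes had medians of -0.58 around ROBO1, -0.56 around ROBO2, -0.59 around EPHA3 and -0.27 around EPHB3. Off chromosome 3, 5 of 43 guidance genes rose and 8 fell. Of the 12148 expressed genes there, 1378 were higher and 1440 (11.9%) lower, with a median of 0.01. The 8 guidance genes that fell were SLIT3, NTN4, SEMA6A, EFNB2, EFNB3, EPHA2, EPHA5 and EPHA7. Whether the shared shift of chromosome 3 accounts for the falls there was not tested.

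**Figure D3:**
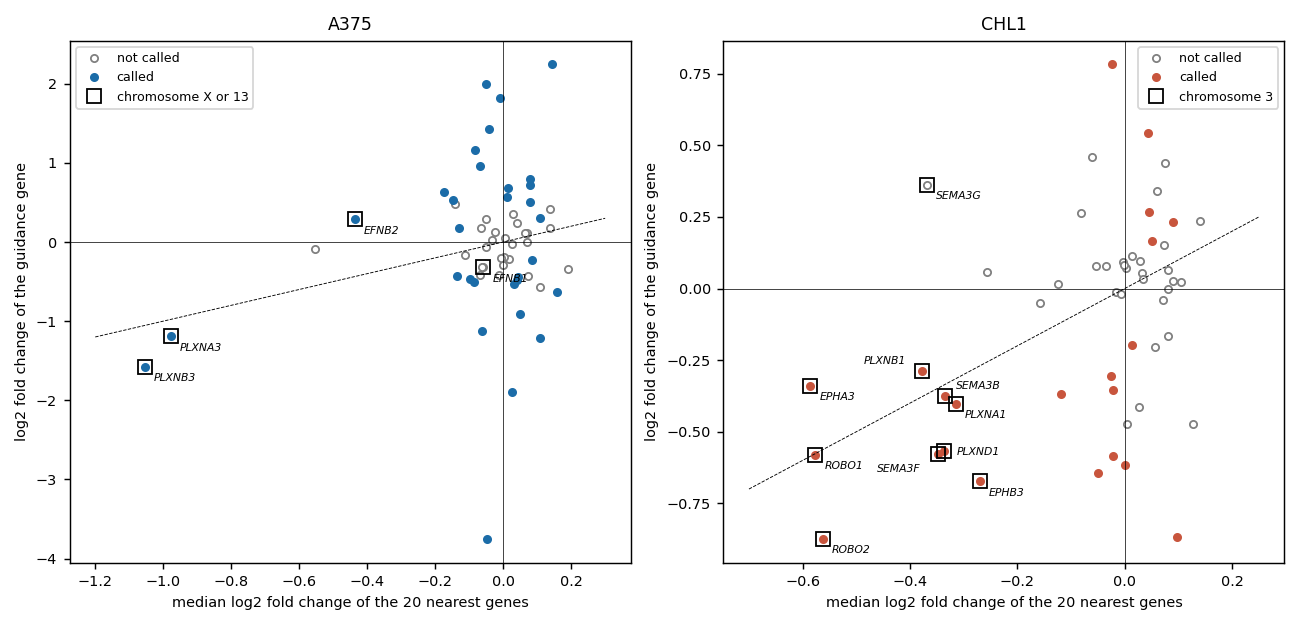
Each point is a guidance gene, with the median log2 fold change of its 20 nearest expressed protein-coding genes on the horizontal axis and its own on the vertical axis (filled where called, dashed line at equality), for A375 on chromosomes X and 13 (squares) and CHL1 on chromosome 3 (squares). In CHL1 the squares sit at neighbour medians below -0.2 and all but SEMA3G lie below 0, and in A375 PLXNA3 and PLXNB3 lie at neighbour medians near -1.

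The third comparison set the change in CHL1 against that in A375 in a fit to all 12 libraries. Of 63 guidance genes 22 differed between the lines, 8 with a higher and 14 with a lower change in CHL1. That share was 34.9%, beside 23.6% of all 19241 genes tested (11.9% higher and 11.7% lower) and 30.0% of the protein-coding genes of at least 1 CPM. Differences of at least 2-fold were called for 11 of the 63, beside 6.84% of all genes and 7.66% of the protein-coding ones. EPHA6 (-3.30 ± 0.57, SE) is counted among the 22 and the 11, but the choice by level favoured its difference, which is given as a description. In the order of size the other 10 were SEMA6D (-2.40 ± 0.59), SEMA3E (-1.92 ± 0.58), PLXNB3 (1.85 ± 0.18), SLIT2 (-1.83 ± 0.24), EPHA7 (-1.55 ± 0.21), EFNB3 (-1.52 ± 0.23), SEMA7A (1.47 ± 0.18), ROBO2 (-1.23 ± 0.30), SEMA5A (-1.18 ± 0.36) and PLXNA3 (1.16 ± 0.17), as the CHL1 change minus the A375 change with SE. EPHA6 and SEMA3E had only 15 and 18 counts over the parental and 7 and 8 over the resistant CHL1 libraries, and their CHL1 levels were at most 0.223 ± 0.0633 CPM (SD, n = 3).

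For several of these genes only 1 line had a called change, and the libraries of the other line are given here. PLXNA3 in CHL1 was at 93.4, 97.5 and 95 CPM before and 87.6, 101 and 90.0 CPM after resistance. SEMA7A in CHL1 was at 8.01, 8.82 and 9.93 CPM before and 10.4, 13.9 and 9.57 CPM after resistance. SEMA5A in CHL1 was at 24.3, 20.5 and 18.5 CPM before and 26.7, 22.8 and 25.5 CPM after resistance. The resistant and parental libraries overlapped for all 3. SEMA6D in CHL1 was at 19.4, 13.2 and 10.7 CPM before and 13.7, 9.7 and 9.5 CPM after resistance. ROBO2 in A375 was at 2.85, 1.63 and 2.01 CPM before and 3.84, 1.88 and 2.58 CPM after resistance. SEMA3E in CHL1 was at 0.286, 0.222 and 0.16 CPM before and 0.162, 0.0724 and 0.0725 CPM after resistance. These groups overlapped as well, and SEMA3E was within a few counts of 0.

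Of 49 guidance genes tested in both lines, 23 were called in A375 and 20 in CHL1, and 10 in both, which is 43.5% of the former and 50% of the latter. Over all 15975 genes tested in both, 1233 were called in both, 27.9% of the A375 and 36.5% of the CHL1 calls. The direction was the same for 4 of the 10. SEMA3C rose in both lines, and EPHA2, SEMA3B and PLXND1 fell in both. The other 6 went opposite ways: EFNB2, EFNB3, EPHA7, PLXNA1 and SEMA6A rose in A375 and fell in CHL1, and PLXNB3 fell in A375 and rose in CHL1. Over all genes called in both, 52.9% had the same direction. All 6 opposite genes also differed by the test of the difference, as did PLXND1 (-0.33 ± 0.10, SE), which fell more in CHL1. Leaving out single libraries ended the calls of EFNB2, PLXNA1, PLXND1, EPHA7 and SEMA3B in A375 and of SEMA6A in CHL1.

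**Figure D4:**
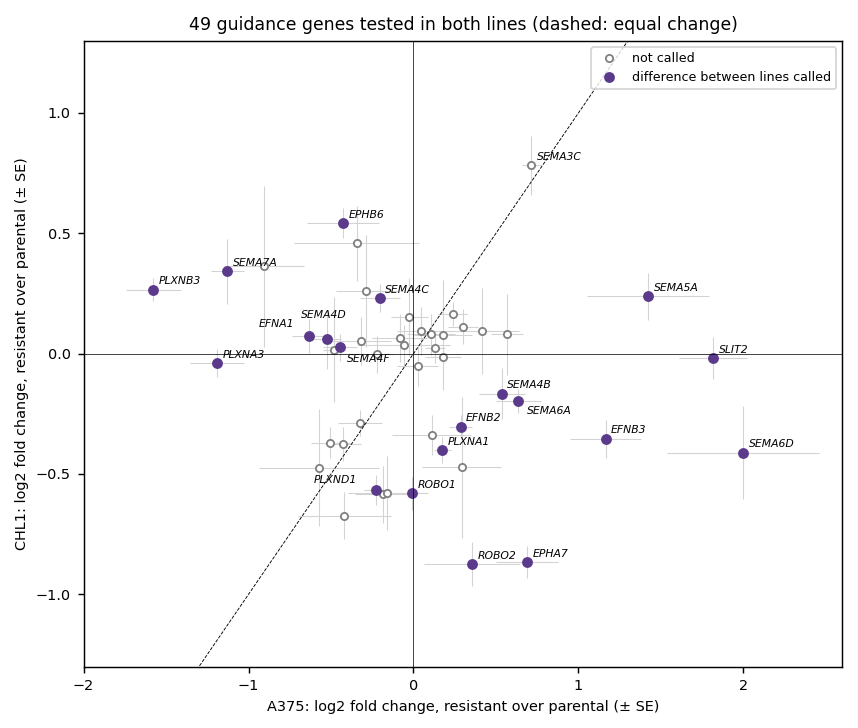
Log2 fold change ± SE in A375 (horizontal) against CHL1 (vertical) for the 49 guidance genes tested in both lines, filled where the difference between lines was called and with a dashed line at equal change. SEMA3C lies near the dashed line in the upper right, and EFNB2, EFNB3, EPHA7, PLXNA1 and SEMA6A lie to the right of 0 in A375 and below 0 in CHL1.

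Ligands and their receptors were set side by side for 31 pairs. In A375 29 pairs could be tested at both ends and 10 had both ends called, 7 in the same and 3 in opposite directions. Ligand and receptor both rose for SEMA3A with PLXNA1, SEMA6D with PLXNA1, EFNA5 with EPHA4, EFNA5 with EPHA7, EFNB2 with EPHB4 and EFNB2 with EPHA4. Both fell for EFNA1 with EPHA2. The ligand rose and the receptor fell for SEMA5A with PLXNB3, SEMA3C with PLXND1 and SEMA3E with PLXND1. Several pairs share a gene and are not independent. Single genes were called often, 52.5% of the guidance genes tested in A375 and 41.5% in CHL1. Whether pairs with both ends called exceed what these shares give was not tested. The A375 calls of PLXNA1, PLXND1, EFNB2, EPHB4, SEMA3E, EPHA7 and SEMA5A were lost in 1 or more leave-one-out fits. In CHL1 the call of NEO1 was lost in all 6. SLIT2 rose while ROBO1 and ROBO2 were not called, and SEMA7A fell while PLXNC1 (-0.28 ± 0.18, SE) was not called. In CHL1 22 pairs could be tested and 4 had both ends called. SLIT3 fell with ROBO1 and EFNB3 with EPHB3, whereas SEMA3C rose as PLXND1 fell and NTN4 fell as NEO1 rose.

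The parental lines differed widely in which guidance genes they carried. The level chose the members, and 16 of them passed 1 CPM in both groups of only 1 line, so the differences are given as a description. Of 63 genes 28 were higher in CHL1 and 27 in A375 (87.3%), beside 75.6% of all genes, of which 37.4% were higher and 38.2% lower in CHL1. Among protein-coding genes reaching 1 CPM, 82.9% differed, with 43.9% higher and 39.0% lower in CHL1. At least 2-fold differences were called for 41 of the 63, beside 37.5% of all and 36.8% of these protein-coding genes. The median absolute difference was 1.94 against 0.71. The parental calls of PLXNB2, SEMA4B, SEMA3B and EPHA3 were lost in 9, 4, 3 and 1 of the alternative settings. Parental A375 held 91.9 ± 8.52 CPM of SEMA3A, 30.7 ± 2.62 CPM of ROBO4, 15.7 ± 2.9 CPM of EPHA4, 14.8 ± 1.87 CPM of EPHB1 and 31.7 ± 0.384 CPM of EPHB2 (SD, n = 3). In parental CHL1 the summed counts of these genes over 3 libraries were 6 for SEMA3A, 1 for ROBO4, 6 for EPHA4 and 2 for EPHB1, while EPHB2 was at 1.03 ± 0.202 CPM (SD, n = 3). In the other direction, parental CHL1 held 231 ± 15.2 CPM of SEMA6A, 75 ± 1.75 CPM of EPHB6, 41.1 ± 3.25 CPM of SLIT3, 14.5 ± 4.45 CPM of SEMA6D, 9.44 ± 0.457 CPM of EPHA5 and 4.65 ± 0.313 CPM of EFNA2 (SD, n = 3). Parental A375 had 6.35 ± 0.638 CPM of SEMA6A, 2.21 ± 0.179 CPM of EPHB6 and 0.173 ± 0.0749 CPM of SLIT3 (SD, n = 3), and 2 counts of EFNA2 in all.

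Of the Slit receptors, parental ROBO1 was at 91.7 ± 10.9 CPM in A375 and 41.9 ± 3.34 CPM in CHL1, and parental ROBO3 at 10.7 ± 1.17 CPM and 1.65 ± 0.207 CPM (SD, n = 3). The neuropilins were both higher in A375, NRP1 at 152 ± 14.7 CPM against 25.4 ± 2.25 CPM and NRP2 at 82.7 ± 11.8 CPM against 51.2 ± 5.46 CPM (SD, n = 3). PLXNB3 and PLXNA3 were higher in CHL1, by 2.52 ± 0.12 and 2.36 ± 0.12 on the log2 scale (SE). The parental lines were not called different for EFNA3, EFNB1, EPHA6, EPHB3, NEO1, NTN4, PLXNA1 and UNC5C. Per kilobase of exon, the scale on which genes can be compared, EPHA2 was highest in both parental lines, at 116 CPM per kb in A375 and 53.1 in CHL1. It was followed in A375 by SEMA3B at 27.7, PLXNB2 at 19.9, SEMA7A at 18.9 and SEMA3C at 16.3 CPM per kb, and in CHL1 by SEMA3B at 34, PLXNB3 at 33.3, PLXNB2 at 22.2 and SEMA4C at 21.3 CPM per kb. After resistance SEMA3C stood at 26.7 and SEMA7A at 8.63 CPM per kb in A375, so that SEMA3C came second to EPHA2.

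**Figure D5:**
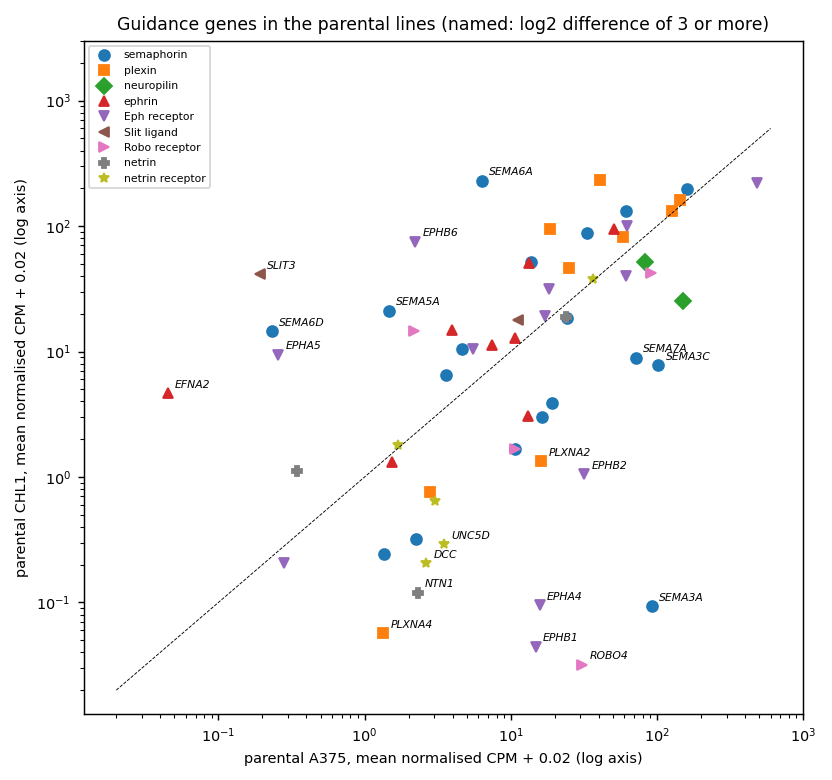
Mean normalised CPM of the 63 guidance genes in parental A375 (horizontal) and parental CHL1 (vertical), both on log axes after adding 0.02 CPM so that the lowest values show, with a symbol per family and a dashed line at equal level. SEMA3A, ROBO4, EPHA4 and EPHB1 lie far to the lower right, and SLIT3, EFNA2, SEMA6D and SEMA6A far above the line.

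Other genes of the pathway were read from a pair of lists. Of co-receptors and other guidance cues, 6 of 21 tested rose and 5 fell in A375, and 4 of 22 rose and 7 fell in CHL1, beside 13.4% higher and 14.8% lower over all A375 genes and 9.11% and 12.1% over all CHL1 genes. In A375 the adhesion molecule L1CAM, on chromosome X, went from 207.9 to 39.5 CPM as group means (-2.40 ± 0.12), NRCAM from 11.8 to 41.5 CPM (1.82 ± 0.14) and FLRT2, a ligand of UNC5 receptors, from 5.33 to 14.7 CPM (1.46 ± 0.15). In CHL1 the chemokine CXCL12 went from 306 to 145 CPM (-1.09 ± 0.05), the adhesion gene CHL1, which shares its name with the line, from 280.0 to 187 CPM (-0.59 ± 0.04), and L1CAM from 42.5 to 23 CPM (-0.89 ± 0.08, SE). The gene CHL1 lies on chromosome 3. Of cytoplasmic effectors of guidance receptors, 7 of 55 rose and 10 fell in A375, and 6 of 55 rose and 5 fell in CHL1, to be read against the same shares. In A375 DOCK1, a Rac activator on chromosome 10, changed by -0.73 ± 0.06 beside a neighbour median of -0.63. The kinase PAK3 changed by 2.58 ± 0.23, from 0.731 to 4.39 CPM, beside a neighbour median of 0.29. GIPC1, on chromosome 19, changed by -0.50 ± 0.06 beside a neighbour median of -0.37. In CHL1 the kinase PAK2 (-0.52 ± 0.04) and the GTPase RHOA (-0.43 ± 0.04), both on chromosome 3, fell, and the kinase FYN rose by 0.21 ± 0.04 (SE).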

How the data were processed

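RNA of 12 libraries was sequenced with a kit that does not mark strand, per the labels' protocols. The authors deposited raw read counts per Ensembl gene in a table for each line, with 33932 genes for A375 and 32478 for CHL1. HTSeq 0.5, TopHat2, limma, cutadapt 1.7 and CASAVA 1.8.2 are named, without roles, in the submitters' processing notes, and the sources used here give neither genome build nor annotation. Symbols came from a name table, gene types, order and exon lengths from GENCODE 29, and promoter stretches from RefSeq (GRCh38.p14).

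Each line was tested alone in R 4.3.3 with edgeR 4.0.16 (TMM, filterByExpr with a minimum count of 10, quasi-likelihood F-test, two-sided). Line differences were contrasts of a joint fit of the 12 libraries, restricted to genes that both tables list. SE is the absolute log2 fold change over the square root of F. Normalised CPM used the TMM factors of that fit. Tables and figures used Python 3.11.15, pandas 2.3.3 and matplotlib 3.10.9. Other scaling, DESeq2 1.42.0, other filters, a replicate block and leaving out each library were alternatives. The labels give equal replicate numbers across groups but no shared batch. Replicates differed by more than sampling noise. Counting floors of 3 counts cover counting error only.

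Every guidance gene was accounted for. Library values were given for genes called at 2-fold and 1 CPM in a line, called in both lines or at 2-fold between lines, and for their called partners. From each pathway list up to 3 genes per line were named. Genes, lists and pairs were chosen with earlier results of these data known.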

Additional observations from a re-analysis of the deposited data

Results flagged for a closer look

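These 22 guidance genes changed differently with resistance in CHL1 than in A375 by the test of the difference itself. Values are the log2 change in CHL1 minus that in A375. Among ligands the change in CHL1 was lower for SEMA3E (-1.92), SEMA4B (-0.70), SEMA5A (-1.18), SEMA6A (-0.83), SEMA6D (-2.40), EFNB2 (-0.58), EFNB3 (-1.52) and SLIT2 (-1.83). It was higher for SEMA4C (0.44), SEMA4D (0.59), SEMA4F (0.48), SEMA7A (1.47) and EFNA1 (0.71). Among receptors it was lower for EPHA6 (-3.30), EPHA7 (-1.55), PLXNA1 (-0.57), PLXND1 (-0.33), ROBO1 (-0.57) and ROBO2 (-1.23), of which PLXNA1, PLXND1, ROBO1 and ROBO2 lie on the shifted chromosome 3 of CHL1. It was higher for EPHB6 (0.98), PLXNA3 (1.16) and PLXNB3 (1.85), and the last pair lie among falling genes of chromosome X in A375. The values of EPHA6 and SEMA3E rest on few counts in CHL1, and the choice by level favoured the difference of EPHA6. The calls of SEMA4C, PLXND1, SEMA3E and SEMA5A were lost in 9, 5, 4 and 4 of 12 leave-one-out fits.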

How the results depend on the processing

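No called guidance gene reversed direction under any alternative run. Of the calls, 19 of 31 in A375, 17 of 22 in CHL1 and 18 of 22 in the difference between lines held in every alternative that tested the gene. SEMA6D, counted among the 19 in A375, was too low to be tested under the filter of 1 CPM in 3 libraries. Leaving out 1 library gave 9 to 16 guidance genes higher in A375 (10 without resistant replicate 1 and 9 without resistant replicate 3, against 16) and 3 to 5 higher in CHL1 (3 without parental replicate 2, against 5). The counts of lower genes and the other counts stayed within 1.5 times of the reported ones. Other alternatives added SEMA3D in CHL1, and DCC, EPHA4, SEMA3F, SEMA3G and UNC5B in the difference between lines, to the calls. No scaling moved the median of all genes by over 0.1 on the log2 scale. The protein sequence comparison that had been planned was not run.

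With the replicate number as a block, 17 guidance genes were higher and 18 lower in A375, 6 and 18 in CHL1, 10 and 14 in the difference between lines, and 27 and 27 between the parental lines. Genes called with the block and not without it were PLXNB1 (-0.31, adjusted p = 0.0322), EPHB3 (-0.41, 0.0127), NRP1 (-0.22, 0.00629) and NEO1 (0.24, 0.04) in A375, SEMA6D (-0.39, 0.00509) and SEMA5A (0.24, 0.0371) in CHL1, and DCC (3.44, 0.0235) and SEMA3G (1.28, 0.0291) in the difference between lines, as log2 changes in edgeR. Over all genes the block gave 6307 calls in A375, 4305 in CHL1, 4659 for the difference and 14601 between the parental lines, against 5111, 3645, 4536 and 14550. Deviations of same-numbered parental and resistant libraries from their group means correlated at 0.208, 0.214 and -0.016 in A375. In CHL1 these values were 0.09, 0.017 and -0.003. Crossed A375 libraries gave -0.254 for parental replicate 1 with resistant replicate 2, and -0.182 for parental replicate 2 with resistant replicate 1. Replicates 1 and 2 of A375 thus tracked their numbers weakly, and replicate 3 did not. Whether equal numbers mark a shared batch was not tested.

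At this depth, genes near the floor of 3 counts, such as EPHA6, SEMA3E and SEMA6D in the line where each was low, allow only wide intervals.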
